A study of Gossypium barbadense and Gossypium hirsutum with 72 samples.

Results

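The genes described here were those with more mRNA signal in the apex of upland cotton, Gossypium hirsutum (Gh), than in that of sea-island cotton, G. barbadense (Gb), in every library of the series. A gene was taken when the lowest of the 18 Gh libraries lay above 4 times the highest of the 18 Gb libraries and the mean over the Gh libraries was at least 2 RPKM (reads scaled to the length of the gene model and to the library total). By this rule 396 of the 64274 genes listed in any library were chosen, or 1.03% of the 38416 genes with a Gh mean of at least 2 RPKM. The genes were thus selected on these RPKM values themselves, so the difference between the species is a description of the choice and is not tested. All reads, those of G. barbadense included, were aligned to the G. hirsutum genome, and a low Gb value from less transcript cannot be told apart from one caused by reads that did not align.

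Both species are allotetraploid cottons that carry an A and a D subgenome, so most genes have a close copy on the other subgenome. Genes can be lost, duplicated or moved between related species, and the order and sequence of what is left drifts apart, so that a gene model of one species may have a weak counterpart or none in the other. The shoot apex holds the meristem from which leaves, axillary buds and flowers arise, and in the nulliplex branch trait flowers arise directly from the leaf axils of the main stem in place of a fruiting branch.

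The 36 libraries formed 12 groups of 3, from 4 lines at 3 stages. In G. barbadense, Hai1 gave the normal branch (WT) and Xinhai16 the nulliplex branch (np). In G. hirsutum, Huazhong 94-3130 gave the normal branch and 3798 the nulliplex branch. In the group names, 1 stands for seedlings with 2 leaves, 2 for the pre-squaring stage and 3 for the squaring stage. By the labels the pre-squaring plants had 8 leaves in Gb2WT, 6 in Gb2np, 6 in Gh2WT and 5 in Gh2np, and the squaring plants had 11 in Gb3WT, 9 in Gb3np, 8 in Gh3WT and 12 in Gh3np. The methods of the study give other leaf numbers than the labels for Gb3WT and Gh3np and a single range for both Gh lines at squaring, and which of the sources holds is not known. Each branch type within a species was 1 pure line, so branch type, line and, at the later stages, leaf number cannot be told apart. Likewise each species was represented by 2 lines. By the methods, apexes of about 10 mm were cut from field-grown plants with 3 biological replicates.

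In units of 1000 reads, 24615 to 28097 were counted in the Gh libraries and 23856 to 25960 in the Gb libraries, and 51699 to 54925 genes were listed in each. Outside its own group, each of the 36 libraries correlated best with a library of its own species, and no 2 replicates held identical counts. PCNA2 and ORC6, genes of DNA replication that mark dividing cells, had reads in every library, at 6.93 to 79.4 RPKM and 1.87 to 11.2 RPKM in Gh. CA1, a carbonic anhydrase of green leaf, was also read in every library and ranged from 12.8 to 1357 RPKM in Gh and from 15.8 to 1161 RPKM in Gb. None of the 8 marker genes examined was among the 396. None of the chosen genes is among those to which the study gives a homologue, and none matched the reference gene table used here, so they are given by their identifiers alone and their functions are not stated.

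The 396 genes were moderately expressed in Gh and at or near 0 in most Gb libraries. The mean over the 18 Gh libraries ranged from 2.02 to 423 RPKM with a median of 7.66 RPKM, against a median of 10.3 RPKM for all genes with a Gh mean of at least 2 RPKM. Of the 396 genes, 122 had a Gh mean under 5 RPKM, 152 were over 10 RPKM, 18 over 50 RPKM and 5 over 100 RPKM. Their Gb mean had a median of 0.0307 RPKM and an upper quartile of 0.168 RPKM, and 25 genes had a Gb mean over 1 RPKM. All 396 genes had reads in every Gh library, whereas 139 to 185 of them had a read in any 1 Gb library. Together they took 0.389% to 0.575% of the reads of a Gh library and 0.00715% to 0.0126% of the reads of a Gb library. In tissue samples such as these, fewer cells that express a gene and less RNA per cell cannot be told apart.

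The genes fell into 3 classes by their reads in Gb. No read was counted in any Gb library for 83 genes (21.0%), reads in some Gb libraries for 247 genes (62.4%) and a read in every Gb library for 66 genes (16.7%). The genes of the last class were the most strongly expressed in Gh, with a median Gh mean of 16.5 RPKM and a median Gb mean of 0.680 RPKM. The unread genes were the weakest in Gh, at a median of 4.57 RPKM. Over the 313 genes with any Gb read, the Gh mean was a median of 121 times the Gb mean, and 164 of them exceeded 100 times. For 67 of these the Gb mean rests on 1 to 3 reads in all. Over the 246 genes with more than 3 Gb reads the median was 71.7 times. With the unread genes set to their bound against a floor of 3 counts over the 18 Gb libraries, the median over all 396 genes was 168 times.

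**Figure D1:**
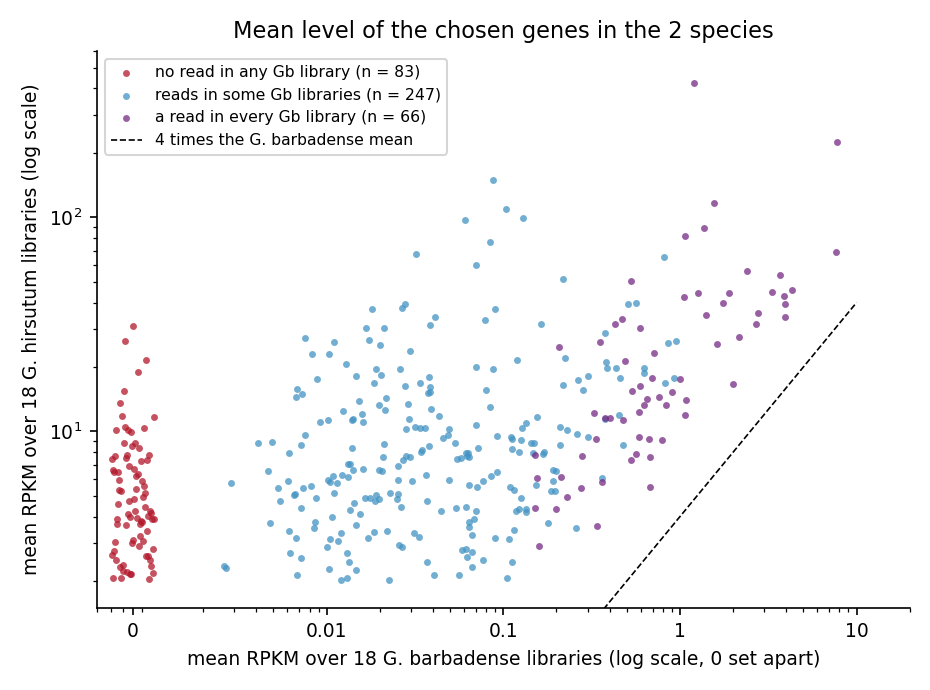
Mean RPKM of each of the 396 genes over the 18 G. barbadense libraries (horizontal, log scale, genes with no read set apart at 0) and over the 18 G. hirsutum libraries (vertical, log scale), each point a gene coloured by its reads in G. barbadense. The 83 unread genes reach no more than 31.1 RPKM in G. hirsutum, while the 66 genes read in every G. barbadense library lie to the right and include the gene at 423 RPKM. The rule partly sets this order.

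CotAD_44291 was the most strongly expressed of the 396 genes, with a mean of 423 RPKM in Gh (SD 323, n = 18). Its Gh libraries ran from 142 RPKM through a median of 296 RPKM to 1211 RPKM, and its Gb libraries from 0.366 through 1.22 to 1.94 RPKM. CotAD_07783 came next, with 90.3 to 378 RPKM in Gh (median 219.8 RPKM) and 1.55 to 15.8 RPKM in Gb (median 8.11 RPKM). It took 6502 of the 43333 reads that the 396 genes received in Gb, more than any other. CotAD_68165 had 68.0 to 251 RPKM in Gh (median 145 RPKM) and 0 to 0.338 RPKM in Gb, where 19 reads were counted over all 18 libraries. CotAD_04678 had 64.0 to 185 RPKM in Gh and 0.818 to 2.20 RPKM in Gb. CotAD_47518 had 40.9 to 246 RPKM in Gh and 0 to 0.684 RPKM in Gb. The next 5 genes by Gh mean were CotAD_03547 at 99.8 RPKM, CotAD_31058 at 97.7 RPKM, CotAD_65397 at 89.3 RPKM, CotAD_19201 at 81.9 RPKM and CotAD_21893 at 76.4 RPKM. These 10 strongest genes thus differed widely in what was left in Gb, from a mean of 0.0606 RPKM in CotAD_31058 to 7.79 RPKM in CotAD_07783.

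Among the 83 genes with no Gb read, CotAD_43644, CotAD_27666 and CotAD_67663 were the strongest in Gh. CotAD_43644 had 16.4 to 46.0 RPKM over the Gh libraries with a mean of 31.1 RPKM, at least 928 times the level that a floor of 3 counts over the 18 Gb libraries allows. CotAD_27666 had 16.4 to 35.2 RPKM (mean 26.5 RPKM, at least 827-fold higher), and CotAD_67663 had 7 to 36.3 RPKM (mean 21.5 RPKM, at least 576-fold higher). All of these are short gene models, of 201, 210 and 180 bases. Over the 83 genes the bound had a median of 238 times and ranged from 58.0 to 2615 times. These bounds cover counting error only. The series holds 92 genes with a Gh mean of at least 2 RPKM and no Gb read, and the 9 that are not among the 396 had no read in at least 1 Gh library. In 4 of these 9, all libraries of 1 Gh line were unread.

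At the other end, CotAD_07783, CotAD_26749 and CotAD_69802 kept the highest Gb means. CotAD_26749 had 5.88 to 10.8 RPKM in Gb against 44.6 to 110 RPKM in Gh, and its Gb reads covered 93.7% of the gene model in the median library. CotAD_69802 had 2.67 to 6.30 RPKM in Gb against 28.9 to 87.4 RPKM in Gh, with 95.2% of the model covered in Gb. The ratio of the lowest Gh to the highest Gb library had a median of 10.1 over the 313 genes with Gb reads and reached 232, and 50 genes lay between 4 and 5. Just inside the limit were CotAD_34714 at 4.001 and CotAD_71316 at 4.026, and just outside were CotAD_03109 at 3.966 and CotAD_14217 at 3.957. In these 4 genes the Gh mean was 81.2, 11.5, 18.6 and 48.9 times the Gb mean. By arithmetic a ratio of means cannot lie below the ratio of the lowest Gh to the highest Gb library.

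The chosen genes were short. Their coding length had a median of 579 bases, against 1065 bases for all genes with a Gh mean of at least 2 RPKM. Of the 2212 such genes with a length of up to 300 bases, 102 (4.61%) were chosen, and the share was 1.55% from there to 600 bases, 0.909% to 1200 bases and 0.443% above. The 83 genes with no Gb read had a median length of 264 bases, those with reads in some Gb libraries 633 bases and those read in every Gb library 927 bases. At the same RPKM a longer model collects more reads, so the way these classes were set partly fixes this order. The same rule with the species exchanged chose 182 genes, or 0.476% of the 38240 genes with a Gb mean of at least 2 RPKM, with a median length of 829.5 bases. Of those 182 genes, 23 (12.6%) had no read in any Gh library. Their share by length fell from 0.990% of the shortest models to 0.267% of the longest. The part of length in these shares was not tested.

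**Figure D2:**
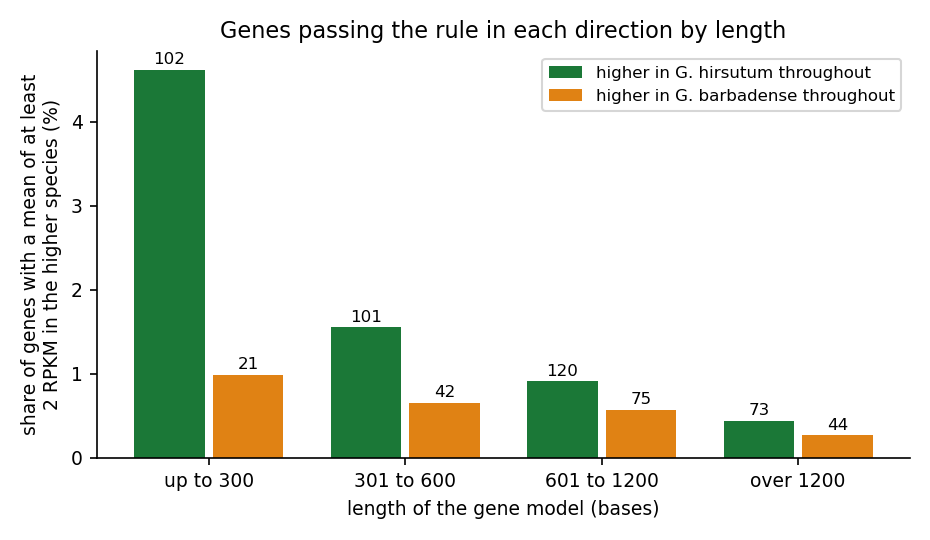
Share of genes that pass the rule (vertical, % of the genes with a mean of at least 2 RPKM in the higher species) by length of the gene model in bases (horizontal), for genes higher in G. hirsutum (green) and higher in G. barbadense (orange), with the number of genes above each bar. The green bars fall from 4.61% to 0.443% and the orange bars from 0.990% to 0.267%.

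The deposited files also give the share of each gene model that was covered by reads, a value the rule did not use but which follows the read number. In Gh the median library covered 96.1% of the model (median over the 396 genes), 289 genes were over 90% and 4 were under 50%. In Gb the median was 0%, 263 genes were under 10% and 40 genes were over 50%. For all genes with a Gh mean of at least 2 RPKM, the corresponding medians were 98.0% in Gh and 97.6% in Gb. Even in the 66 genes with reads in every Gb library, 46.1% of the model was covered in Gb against 98.9% in Gh. To set genes of a like read number side by side, those with a mean of 10 to 100 reads per Gb library were taken. In that range the 52 chosen genes had a median coverage in Gb of 50.1% (quartiles 30.3% and 74.2%) and the 15574 other genes 81.4% (quartiles 62.5% and 92.2%). The chosen genes in this range had fewer reads (a median of 20.4 against 37.5 per library) and longer models (1124 against 774 bases), and what these 2 differences contribute was not tested.

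**Figure D3:**
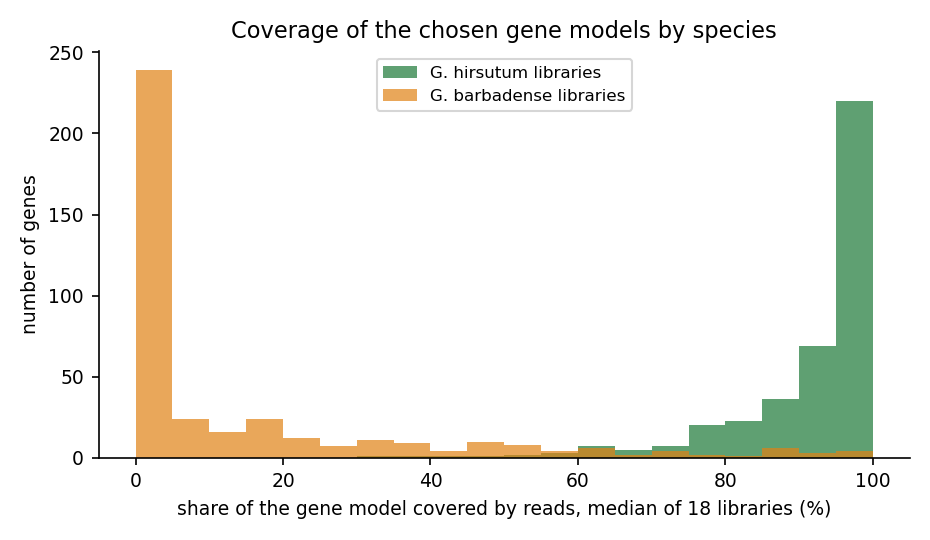
Number of the 396 genes (vertical) by the share of the gene model covered by reads in the median library (horizontal, %), for the 18 G. hirsutum libraries (green) and the 18 G. barbadense libraries (orange). In G. hirsutum 289 genes lie above 90%, whereas in G. barbadense 263 genes lie below 10% and a thin tail of 40 genes lies above 50%.

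Most of the genes read in Gb were read in both lines. Reads of both Hai1 and Xinhai16 were counted for 242 genes, of Hai1 alone for 47 genes and of Xinhai16 alone for 24 genes. Those 71 genes had a median of 2 reads and at most 10 reads over the 18 libraries, so a difference between the lines was not detectable for them at this depth. Of the 115 genes with over 50 Gb reads, 4 had more than 4 times as many reads in 1 Gb line as in the other. In Gh, 9 of the 396 genes had a mean in 1 line more than 2 times that in the other, and 2 genes more than 4 times. These counts were made for the chosen genes only, so whether they are few or many is not known.

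Within Gh, the 396 genes varied between groups about as much as other genes. The highest of the 6 Gh group means was a median of 2.20 times the lowest, against 2.12 times for all genes with a Gh mean of at least 2 RPKM. For 163 genes (41.2%, against 44.6% of all such genes) the groups stayed within 2 times of each other. For 37 genes they spanned more than 5 times, a count made for the chosen genes only, and the whole range was 1.11 to 180 times. The spread between replicates (median coefficient of variation) was 17.0% for these genes and 14.4% for all such genes. The group with the highest mean was Gh2np for 91 genes (23.0%, against 15.5% of all such genes), Gh3np for 79 (19.9% against 19.4%), Gh2WT for 75 (18.9% against 19.1%), Gh3WT for 75 (18.9% against 21.4%), Gh1WT for 48 (12.1% against 16.4%) and Gh1np for 28 (7.07% against 8.17%). By its construction the rule leaves out genes that fall to 0 in any Gh library, and this bears on all comparisons within Gh below.

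In all, 10 comparisons between 2 groups and 3 over all libraries of a species were tested by edgeR's quasi-likelihood test, with p adjusted by the Benjamini-Hochberg method over all genes, and a gene was called where the adjusted p was under 0.001 and the log2 fold change lay over 1 in either direction. Over the 13 comparisons 46 of the 396 genes (11.6%) were called at least once, beside 17.5% of the 51367 genes tested in any of them. In the comparisons within Gb only 52 to 77 of the 396 could be tested. These shares thus do not have like chances of a call and cannot be compared. In the 9 comparisons within Gh these numbers were 42 of the 396 (10.6%), beside 11% of the 49197 genes tested.

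**Figure D4:**
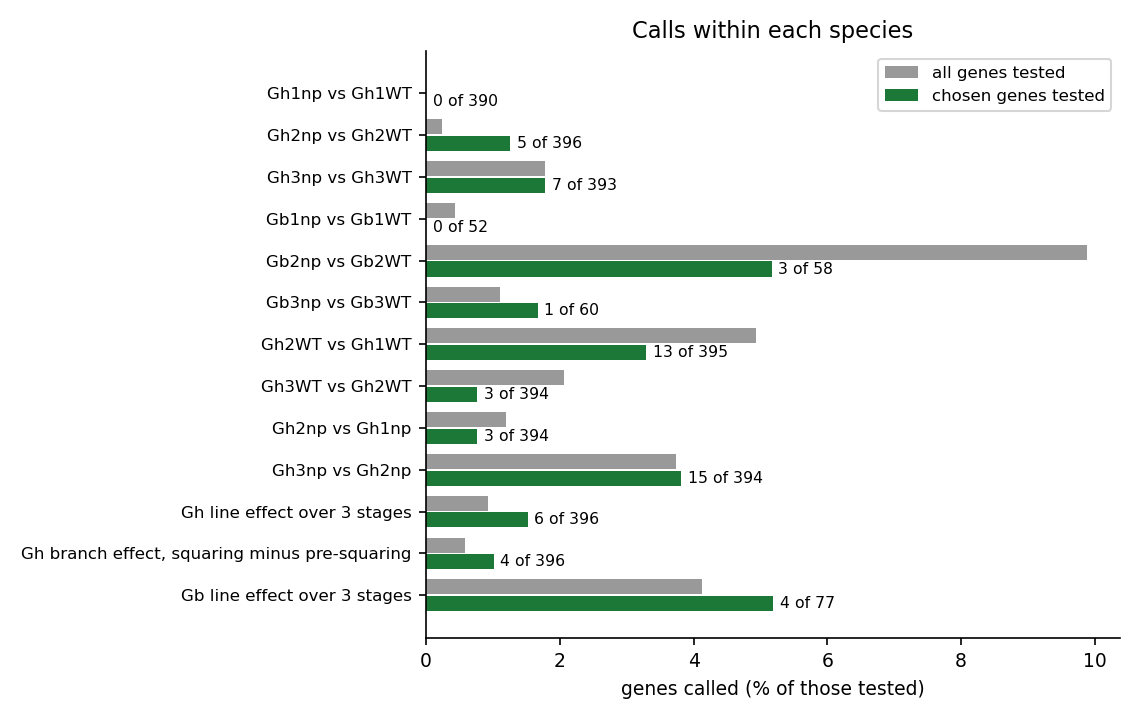
Share of genes called (horizontal, %) in each of the 13 comparisons within a species (vertical), for all genes tested (grey) and for the chosen genes that could be tested (green, with their numbers). In Gh2np against Gh2WT 5 of 396 chosen genes were called beside 0.24% of all genes, and in Gh3np against Gh2np 15 of 394 beside 3.74%.

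Between the nulliplex and normal branch lines of Gh, none of the 390 genes tested was called in seedlings, as was the case for all genes (0%). An unadjusted p under 0.05 was found for 42 of them (10.8%, beside 13.1% of all genes), DESeq2 called 5 (beside 0.669% of all genes) and limma called 1 (beside 0.0673%). At pre-squaring 5 of 396 genes (1.26%) were called, 4 higher and 1 lower in Gh2np, beside 0.24% of all genes tested, and 93 (23.5%) had an unadjusted p under 0.05, beside 25.7%. At squaring 7 of 393 (1.78%) were called, 2 higher and 5 lower in Gh3np, beside 1.78% of all genes, and 158 (40.2%) had an unadjusted p under 0.05, beside 40.9%. Over the 3 stages together the line effect was called for 6 of 396 genes (1.52%), 3 in each direction, beside 0.927% of all genes. With 1 library left out, 1 to 2 genes were called at pre-squaring, whichever library it was, beside 0.0382% to 0.212% of all genes. At squaring 11 genes (2.78%) were called without Gh3WT replicate 2, beside 2.14% of all genes, and 2 to 4 without any other library, beside 0.178% to 0.815%.

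CotAD_25388 had the widest difference between the 2 Gh lines. In seedlings its level was 4.38, 2.04 and 5.77 RPKM in Gh1WT and 109.5, 118 and 100.5 RPKM in Gh1np. At pre-squaring it was 1.12, 1.54 and 1.72 RPKM in Gh2WT and 26.3, 23.2 and 24.6 RPKM in Gh2np. At squaring it was 0.750, 0.766 and 0.306 RPKM in Gh3WT and 20.9, 29.4 and 21.1 RPKM in Gh3np. Every library of 3798 thus lay above every library of Huazhong 94-3130, and in both lines the seedlings were highest. The line effect over the 3 stages was 4.69 on the log2 scale (SE 0.20, adjusted p = 1.4e-10), or 25.9-fold, and the gene was called at pre-squaring (log2 4.05, SE 0.17, adjusted p = 2.7e-05) and at squaring (log2 5.22, SE 0.28, adjusted p = 2.2e-05). In Gb 5 reads were counted over the 18 libraries, at 0 to 0.0558 RPKM.

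CotAD_25242 was the opposite case, higher in the normal branch line throughout. It had 6.70, 6.31 and 3.97 RPKM in Gh1WT and 1.29, 1.36 and 1.68 RPKM in Gh1np. At pre-squaring the levels were 10.9, 7.89 and 8.66 RPKM in Gh2WT and 2.14, 1.53 and 2.05 RPKM in Gh2np. At squaring they were 12.3, 10.1 and 10.1 RPKM in Gh3WT and 2.02, 1.62 and 1.47 RPKM in Gh3np. The lines did not overlap at any stage. The line effect was -2.30 on the log2 scale (SE 0.12, adjusted p = 2.1e-09). The gene was called lower at squaring (log2 -2.74, SE 0.17, adjusted p = 4.0e-05) and at pre-squaring (log2 -2.28, SE 0.19, adjusted p = 0.00071). The pre-squaring call was lost when any of the 6 libraries was left out, with an adjusted p of up to 0.0078.

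CotAD_68165, the third strongest gene, was at 115, 96.1 and 128 RPKM in Gh1WT and 251, 162 and 239 RPKM in Gh1np. It was at 89.4, 92.7 and 89.6 RPKM in Gh2WT and 192, 194 and 204 RPKM in Gh2np, and at 80.5, 89.0 and 68.0 RPKM in Gh3WT and 168, 218 and 201 RPKM in Gh3np. The nulliplex line was thus about level over the stages and above the normal branch line in each, with a line effect of 1.12 on the log2 scale (SE 0.11, adjusted p = 3.6e-06). CotAD_53695 was lower in 3798, at 14.6 RPKM in Gh1WT against 5.44 RPKM in Gh1np, 17.0 against 9.55 RPKM at pre-squaring and 19.9 against 8.78 RPKM at squaring, with a line effect of -1.15 (SE 0.11, adjusted p = 3.0e-06). The third gene lower in 3798 was CotAD_17371 (-1.07, SE 0.13, adjusted p = 8.0e-05), and the third higher was CotAD_44291 (1.14, SE 0.11, adjusted p = 2.6e-06). For CotAD_44291 this average over the stages did not hold at squaring, where the mean was 316 RPKM in Gh3WT and 281 RPKM in Gh3np. All 6 line effects kept their call with each of the 18 libraries left out in turn.

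**Figure D5:**
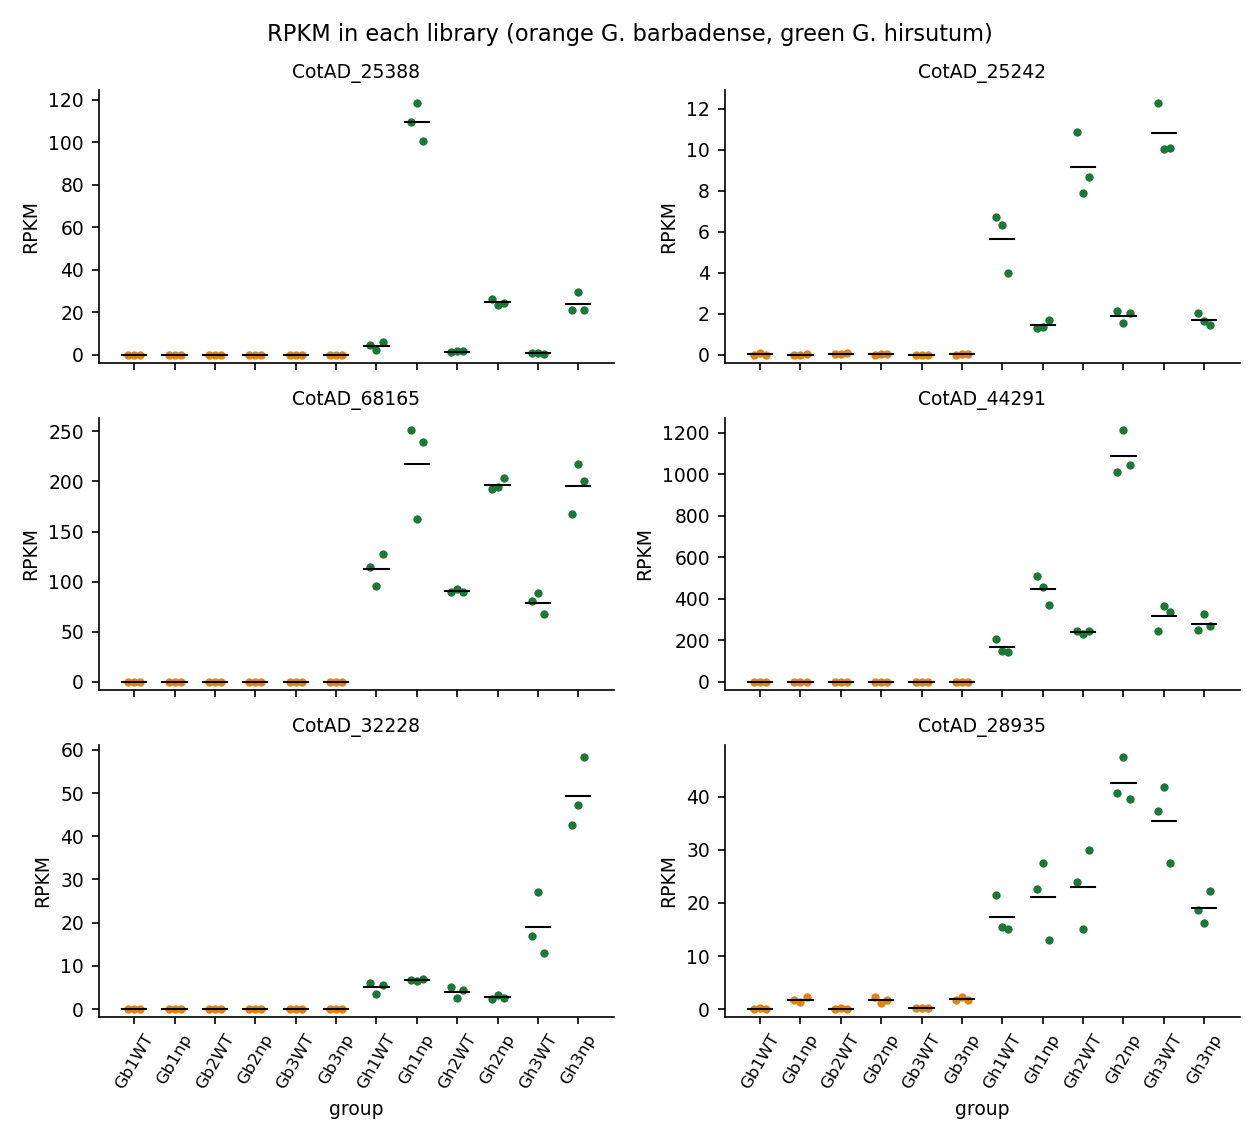
RPKM of 6 of the genes (vertical, linear scale, a separate scale for each gene) in each of the 36 libraries by group (horizontal), with points for libraries and bars for the mean of 3. CotAD_25388 and CotAD_68165 are higher and CotAD_25242 is lower in the nulliplex line of G. hirsutum at all 3 stages, CotAD_44291 peaks at 1088 RPKM in Gh2np, CotAD_32228 is highest in Gh3np at 49.4 RPKM, and CotAD_28935 is the one whose G. barbadense reads lie mostly in Xinhai16.

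A further 2 genes were called at squaring alone among those named. CotAD_60262, which had no Gb read, was at 10.6, 12.3 and 10.7 RPKM in Gh3WT and 1.92, 2.38 and 3.02 RPKM in Gh3np, and was called lower (log2 -2.26, SE 0.28, adjusted p = 0.00088). At pre-squaring both lines were at 1.69 RPKM. CotAD_47518 was at 177, 246 and 221 RPKM in Gh3WT and 67.2, 87.8 and 56.4 RPKM in Gh3np, and was called lower (log2 -1.68, SE 0.18, adjusted p = 0.00050). The call of CotAD_60262 was lost without any 1 of the 6 libraries (adjusted p up to 0.0070). That of CotAD_47518 was lost without Gh3WT replicate 3 or any library of Gh3np (adjusted p up to 0.0037).

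In 4 genes the difference between the Gh lines changed from pre-squaring to squaring, as tested by the interaction over the 18 Gh libraries (4 of 396 genes called, beside 0.582% of all genes). In 3 of them the nulliplex line was the higher at pre-squaring and had the lower mean at squaring. CotAD_44291 was at 246, 229 and 246 RPKM in Gh2WT and 1011, 1211 and 1042 RPKM in Gh2np, a gap with no overlap (log2 2.16, SE 0.12, adjusted p = 8.7e-05), and at 244, 367 and 336 RPKM in Gh3WT and 249, 325 and 267 RPKM in Gh3np, where the lines overlapped. The branch effect at squaring minus that at pre-squaring was -2.41 on the log2 scale (SE 0.26, adjusted p = 0.00014). CotAD_44286 had the same shape, at 32.5, 33.2 and 34.8 RPKM in Gh2WT, 82.2, 80.3 and 74.3 RPKM in Gh2np, 37.1, 57.4 and 54.1 RPKM in Gh3WT and 19.6, 26.4 and 19.4 RPKM in Gh3np. Its difference of effects was -2.48 (SE 0.28, adjusted p = 0.00019). CotAD_42517 was at 28.4, 28.3 and 24.1 RPKM in Gh2WT and 40.2, 47.9 and 39.2 RPKM in Gh2np, and at 62.9, 68.5 and 75.1 RPKM in Gh3WT and 35.3, 38.7 and 29.1 RPKM in Gh3np, with a difference of -1.73 (SE 0.24, adjusted p = 0.00061).

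CotAD_71316 went the other way. It was at 11.5, 12.3 and 13.2 RPKM in Gh2WT and 10.5, 10.3 and 10.1 RPKM in Gh2np, and at 6.69, 6.93 and 6.60 RPKM in Gh3WT and 13.5, 11.9 and 12.9 RPKM in Gh3np (difference of effects 1.12, SE 0.16, adjusted p = 0.00068). The call of CotAD_44291 held with each library left out, although its call at pre-squaring was lost without Gh2WT replicate 3 or Gh2np replicate 1 or 3 (adjusted p up to 0.0016). The call of CotAD_44286 was lost without Gh3np replicate 3 (adjusted p = 0.0012), and that of CotAD_71316 without any 1 of the 12 pre-squaring and squaring libraries (adjusted p up to 0.0031). The call of CotAD_42517 was lost without any of these 12 other than Gh3WT replicate 2 (adjusted p up to 0.0026). Between 1 gene, without Gh3np replicate 3 (beside 0.0701% of all genes), and 6 genes, without Gh1np replicate 2 (beside 1.35%), were called in these fits, and 2 without any pre-squaring library (beside 0.06% to 0.318%). PCNA2, the marker of dividing cells, had a mean of 19.3 RPKM in Gh2WT, 58.9 in Gh2np, 58.8 in Gh3WT and 26.3 in Gh3np, and its part in these 4 results was not tested.

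From seedlings to pre-squaring, 13 of 395 genes were called in the normal branch line of Gh (5 higher and 8 lower in Gh2WT, beside 4.94% of all genes) and 3 of 394 in the nulliplex line (all lower in Gh2np, beside 1.19%). The split between higher and lower differed between tools. With limma on log2(RPKM + 1) the counts were 15 higher and 6 lower, and 7 higher and 2 lower, and with DESeq2 they were 26 and 28, and 22 and 24. The fitted log2 fold change lay a median of 0.29 in the normal branch line and 0.34 in the nulliplex line below the log2 ratio of the RPKM means. The tools differ in scaling, filter and model, and the part of each was not tested. CotAD_35365 rose from 3.52, 3.30 and 1.78 RPKM in Gh1WT to 32.3, 23.0 and 38.0 RPKM in Gh2WT (log2 3.16, SE 0.28, adjusted p = 0.00042). CotAD_19870 rose from 1.51, 2.07 and 1.44 RPKM to 15.5, 10.6 and 21.3 RPKM (log2 2.94, SE 0.30, adjusted p = 0.00056). CotAD_51389 fell from 63.1, 76.1 and 65.2 RPKM to 21.6, 12.8 and 19.1 RPKM (log2 -2.23, SE 0.21, adjusted p = 0.00046). CotAD_03547 fell from 159.9, 175 and 213 RPKM to 48.7, 53.3 and 60.3 RPKM (log2 -2.05, SE 0.18, adjusted p = 0.00040). In each of these 4 genes the groups did not overlap.

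In the nulliplex line CotAD_35343 fell from 10.9, 14.2 and 14.1 RPKM in Gh1np to 3.07, 2.84 and 3.64 RPKM in Gh2np (log2 -2.37, SE 0.15, adjusted p = 0.00054), and CotAD_25388 fell with the values given above (log2 -2.49, SE 0.14, adjusted p = 0.00049). One library stood apart in this comparison. CotAD_19870 was at 1.11, 17.4 and 1.42 RPKM in the 3 libraries of Gh1np, the middle value from replicate 2, and without Gh1np replicate 2 the test called 30 of the 396 genes (7.58%, beside 11.1% of all genes). Without any other library it called 0 (beside 0% to 0.0064% of all genes), so that CotAD_35343 and CotAD_25388 kept their call only without replicate 2. In the normal branch line 8 genes were called without Gh1WT replicate 1 (beside 3.78% of all genes), 4 without Gh1WT replicate 2 (beside 2.27%) and 0 without any other library (beside 0% to 0.705%). All 4 genes named for the normal branch line lost their call without Gh1WT replicate 3 or any library of Gh2WT, and CotAD_19870 also without the other seedling libraries. CA1 fell from a mean of 946 RPKM in Gh1WT to 14.0 in Gh2WT and from 895 in Gh1np to 28.7 in Gh2np. GGR, the other green tissue marker examined, went the other way. It was at 6.91 RPKM in Gh1WT and 13.7 in Gh2WT, and at 9.14 in Gh1np and 33.3 in Gh2np. The part of green leaf tissue in these changes was not tested.

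From pre-squaring to squaring, 15 of 394 genes were called in the nulliplex line (8 higher and 7 lower in Gh3np, beside 3.74% of all genes) and 3 of 394 in the normal branch line (1 higher and 2 lower in Gh3WT, beside 2.06%). CotAD_32228 made the widest change, from 2.37, 3.31 and 2.68 RPKM in Gh2np to 42.6, 47.3 and 58.2 RPKM in Gh3np (log2 4.17, SE 0.18, adjusted p = 6.0e-06). In the normal branch line it had 5.01, 2.55 and 4.32 RPKM in Gh2WT and 16.8, 27.2 and 13 RPKM in Gh3WT. CotAD_52872 went from 8.70, 20.6 and 9.89 RPKM in Gh2np to 65.7, 75.4 and 108 RPKM in Gh3np (log2 2.69, SE 0.32, adjusted p = 0.00055). CotAD_21893 fell from 135, 133 and 142 RPKM to 17.7, 19.5 and 25.7 RPKM (log2 -2.69, SE 0.15, adjusted p = 2.3e-05). CotAD_47726 fell from 21.0, 23.6 and 23.6 RPKM to 3.31, 4.29 and 4.04 RPKM (log2 -2.53, SE 0.14, adjusted p = 2.1e-05). None of these 4 genes overlapped between the 2 stages, and the calls of CotAD_32228, CotAD_21893 and CotAD_47726 held with each library left out. The call of CotAD_52872 held only without Gh2np replicate 2. Without that library 20 genes were called (5.08%, beside 4.36% of all genes), and 7 to 10 were called without any other (beside 0.865% to 2.88%), the 7 without Gh2np replicate 1 or 3.

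In the normal branch line CotAD_54164 fell from 24.6, 25.6 and 29.9 RPKM in Gh2WT to 5.66, 3.70 and 3.79 RPKM in Gh3WT (log2 -2.53, SE 0.27, adjusted p = 0.00057). CotAD_31058 fell from 82.5, 80.6 and 97.9 RPKM to 27.5, 39.2 and 25.2 RPKM (log2 -1.45, SE 0.17, adjusted p = 0.00088). CotAD_42517 rose, with the values given above (log2 1.42, SE 0.15, adjusted p = 0.00055). The groups did not overlap in these 3 genes. None of the chosen genes was called when any 1 of the 6 libraries was left out, beside 0.0233% to 0.987% of all genes. For these 3 genes the adjusted p then reached up to 0.0034, 0.0060 and 0.0031. SEP3, a gene of floral organ identity, had a mean of 1.72 RPKM in Gh2WT and 7.79 in Gh3WT, and 7.84 in Gh2np and 12.5 in Gh3np. PCNA2 went from 58.9 RPKM in Gh2np to 26.3 RPKM in Gh3np and, in the opposite direction, from 19.3 RPKM in Gh2WT to 58.8 RPKM in Gh3WT. SUC2, a sucrose transporter of the phloem, had 1.31 RPKM in Gh2np and 8.56 in Gh3np, and 2.11 in Gh2WT and 1.40 in Gh3WT. HB-8, the other vascular marker examined, had 3.74 RPKM in Gh2np and 3.15 in Gh3np, and 3.65 in Gh2WT and 1.92 in Gh3WT. The part of floral, dividing and vascular tissue in these changes was not tested.

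Within Gb, only the genes with enough reads could be tested, 52 of the 396 in seedlings, 58 at pre-squaring, 60 at squaring and 77 over the 3 stages. A gene could pass this filter through the reads of 1 line alone, so that the counts below say nothing of the 396 as a whole. In seedlings 0 genes were called (beside 0.429% of all genes), with 8 at an unadjusted p under 0.05 (15.4%, beside 13.3% of all genes), 3 of 242 called by DESeq2 (beside 1.58%) and 0 by limma (beside 0.44%). At pre-squaring 3 genes were called, all higher in Gb2np (beside 9.88%), and at squaring 1 gene was called, higher in Gb3np (beside 1.1%). The line effect over the stages was called for 4 genes, 3 higher and 1 lower in Xinhai16 (beside 4.13%). At pre-squaring the markers of tissue differed between the lines as well. PCNA2 was at 19.9 RPKM in Gb2WT and 69.9 in Gb2np, SUC2 at 15.6 and 1.62 RPKM, and GGR at 2.73 and 17.7 RPKM. The study names the homologue of GGR a geranylgeranyl reductase but files the gene under geranylgeranyl pyrophosphate synthase. At squaring PCNA2 was at 32.2 RPKM in Gb3WT and 48.5 in Gb3np. Their part in the Gb results was not tested.

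CotAD_28935 was the clearest of these. It reached the filter through libraries of Xinhai16, where it was higher, as did CotAD_05950 and CotAD_10780 described below. A gene as low in Xinhai16 as these were in Hai1 would not have been tested. Their fold changes and adjusted p thus belong to genes that were tested because they were higher in Xinhai16. CotAD_28935 had 0, 0.152 and 0.0601 RPKM in Gb1WT and 1.73, 1.32 and 2.21 RPKM in Gb1np. At pre-squaring it had 0, 0.215 and 0.0309 RPKM in Gb2WT and 2.26, 1.20 and 1.66 RPKM in Gb2np, and at squaring 0.235, 0.151 and 0.220 RPKM in Gb3WT and 1.71, 2.37 and 1.67 RPKM in Gb3np. All libraries of Xinhai16 were above all libraries of Hai1, while every Gh library lay higher still, at 13 to 47.4 RPKM. The line effect in Gb was 3.97 on the log2 scale (SE 0.34, adjusted p = 1.2e-07). The pre-squaring call (log2 4.28, SE 0.60, adjusted p = 0.00016) was lost without Gb2np replicate 3 (adjusted p = 0.0011), and the squaring call (log2 3.17, SE 0.33, adjusted p = 0.00080) without any 1 of the 6 libraries (adjusted p up to 0.0049).

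CotAD_05950 was at 0 in the 3 libraries of Gb1WT and at 1.17, 0.977 and 0.773 RPKM in Gb1np, and its means at the later stages were 0.0454 RPKM in Gb2WT, 0.155 in Gb2np, 0.0259 in Gb3WT and 0.399 in Gb3np. Its line effect was 4.55 (SE 0.58, adjusted p = 3.0e-05), a fitted value that depends on how the counts of 0 are handled. CotAD_22101 was lower in Xinhai16, at means of 0.349 RPKM in Gb1WT against 0.101 in Gb1np, 0.194 against 0.0520 at pre-squaring and 0.170 against 0.0924 at squaring (line effect -1.57, SE 0.26, adjusted p = 0.00024). CotAD_10780 was at 0.0531, 0.0261 and 0.105 RPKM in Gb2WT and 0.586, 0.573 and 0.523 RPKM in Gb2np (log2 3.10, SE 0.48, adjusted p = 0.00034), and its call held only without Gb2WT replicate 3. Without Gb2np replicate 3 no gene was called at pre-squaring, without Gb2WT replicate 3 the count was 3, and without any other library it was 1 (beside 7.23% to 9.77% of all genes over the 6 fits). At squaring 0 of the chosen genes were called when any 1 library was left out, beside 0.423% to 1% of all genes. The 3 line effects held with each library left out.

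The identifiers of some chosen genes were consecutive. Of the 396 genes, 36 had a neighbour in number that was also chosen, in 17 runs, 2 of which held 3 genes. Among the 182 genes of the opposite direction 12 such pairs were found, against 19 pairs among the 396 here. The sets differ in size and no share over all genes was counted, so whether these pairs are few or many is not known. The 2 runs of 3 genes were picked out after their values were seen. CotAD_58951, CotAD_58952 and CotAD_58953 had Gh means of 4.88, 14.1 and 9.21 RPKM and Gb means of 0.126, 0.654 and 0.666 RPKM. CotAD_60044, CotAD_60045 and CotAD_60046 had Gh means of 4.26, 2.84 and 2.94 RPKM and Gb means of 0.118, 0.0618 and 0.0256 RPKM. Genome positions were not used here, so whether consecutive numbers are neighbouring genes was not checked.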

How the data were processed

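Messenger RNA values were taken from 1 deposited table per library. After removal of low-quality reads, the authors mapped reads by SOAP2 (version not given in the sources used here), allowing 5 mismatches, to the G. hirsutum genome of CAAS and counted reads per gene model, under a column headed as unique reads. How reads that fit several models were treated is not given, so close copies may share reads. The counts, the RPKM and the coverage (share of the gene model covered by reads, a signal column) are all the authors' deposited values. RPKM could be recomputed from the count, the coding length and the library total. A gene not listed in a library was set to 0. Small RNA tables were not used.

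The genes were chosen on RPKM with a limit of 4 times and a minimum mean of 2 RPKM. The members, gene lists and tests were chosen with earlier results of these data known. Groups were compared by the quasi-likelihood F test of edgeR 4.0.16 (filterByExpr at 10 counts, TMM scaling) under R 4.3.3, over all genes. Standard errors were obtained by dividing the size of the log2 fold change by the square root of F. Alternatives were DESeq2 1.42.0, no filter, limma 3.58.1 (limma-trend) on log2(RPKM + 1), the replicate number as a block, all 36 libraries in 1 fit, other limits of the rule and each library left out. The script was tested on simulated data. Where Gb had no read, folds are bounds against 3 counts over the 18 libraries. Each library held 23856 to 28097 reads in units of 1000.

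The rule for named genes took the 10 with the highest Gh mean, up to 2 rises and 2 falls per comparison among those called, the 2 nearest the limit on each side, the 3 strongest without a Gb read and the 3 with the highest Gb mean. Apart from these, CotAD_17371 and the 2 runs of 3 identifiers were named after their values were seen. No gene had an annotation that could be used.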

Additional observations from a re-analysis of the deposited data

Results flagged for a closer look

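In 4 genes the effect of line within G. hirsutum differed between the pre-squaring and squaring stages by the interaction test of edgeR over the 18 libraries. The effect at squaring minus that at pre-squaring was -2.48 on the log2 scale in CotAD_44286 (SE 0.28, adjusted p = 0.00019), -2.41 in CotAD_44291 (SE 0.26, adjusted p = 0.00014), -1.73 in CotAD_42517 (SE 0.24, adjusted p = 0.00061) and 1.12 in CotAD_71316 (SE 0.16, adjusted p = 0.00068). All 3 libraries of Gh2np lay above all 3 of Gh2WT in CotAD_44286, CotAD_44291 and CotAD_42517, and all 3 of Gh3np lay above all 3 of Gh3WT in CotAD_71316. By the labels leaf number also differed between the lines, with 5 leaves in Gh2np and 6 in Gh2WT, and 12 in Gh3np and 8 in Gh3WT, and cannot be told apart from line and branch type. The methods of the study differ from the labels on the squaring stage, where they give both Gh lines a single range of leaf numbers.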

How the results depend on the processing

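The number of genes chosen stayed within 1.5 times of 396 in each alternative tried: 578 with a limit of 2 times, 267 with 8 times, 462 with a minimum of 1 RPKM, 274 with 5 RPKM, 402 with RPKM rescaled by TMM factors (382 shared with the 396), 495 when the second lowest Gh library was set against the second highest Gb library, and 392 to 408 without 1 library. Of the alternative fits of the named effects, 425 kept their direction and call, 169 kept their direction and lost the call, and none reversed.

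The counts of chosen genes called differed between tools, as did the shares of all genes called, given in brackets. In the order Gh1np, Gh2np and Gh3np against WT, DESeq2 called 5, 11 and 28 (0.669%, 1.82% and 5.27%), limma 1, 3 and 3 (0.0673%, 0.242% and 1.1%), all 36 libraries in 1 fit 4, 3 and 10 (1.08%, 0.769% and 3.57%), and the fit with no filter 11 at squaring (2.34%). For Gb1np, Gb2np and Gb3np against WT, DESeq2 called 3, 3 and 2 (1.58%, 8.69% and 4.56%), limma 0, 1 and 0 (0.44%, 7.52% and 1.12%), and all 36 libraries in 1 fit 4, 4 and 3 (1.51%, 5.27% and 3.06%). In that last fit all 396 genes passed the filter through the Gh libraries, so its Gb counts are no support for any result. From seedling to pre-squaring, DESeq2 called 54 in the normal branch line and 46 in the nulliplex line (14.9% and 11.7%), limma 21 and 9 (6.47% and 2.33%), and the fit of all libraries 40 and 29 (17% and 13.8%). From pre-squaring to squaring, DESeq2 called 34 and 24 (7.97% and 5.82%), the fit of all libraries 15 and 11 (7.26% and 3.17%), and no filter 10 in the normal branch line (3.13%). DESeq2 called 18 for the interaction (4.04%), and limma 1 for the Gb line effect (2.73%). The causes of these differences were not tested.

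The replicate number did not pair the samples, since in no comparison did all 3 correlations of same-numbered deviations exceed 0.1, and no comparison had every sample correlating best with its own number. With the replicate block the calls in the Gh branch comparisons were 0, 1 and 2 (beside 0%, 0.0345% and 0.26% of all genes). In the Gb branch comparisons they were 0, 1 and 0 (beside 0.0908%, 8.84% and 0.491%). From seedling to pre-squaring 0 were called in both lines (beside 0% in each). From pre-squaring to squaring the calls were 0 in the normal branch line (beside 2.06%) and 10 in the nulliplex line (beside 2.87%). The line effects were called for 6 genes in Gh and 4 in Gb (beside 0.783% and 3.98%), and the interaction for 3 (beside 0.161%).

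Without 1 library each in turn, the calls ranged as follows, with the share of all genes called in brackets. By stage, the Gh branch comparisons gave 0 to 0 (0%), 1 to 2 (0.0382% to 0.212%) and 2 to 11 (0.178% to 2.14%). The Gb ones gave 0 to 0 (0.0312% to 0.508%), 0 to 3 (7.23% to 9.77%) and 0 to 0 (0.423% to 1%). Seedling to pre-squaring gave 0 to 8 (0% to 3.78%) in the normal branch and 0 to 30 (0% to 11.1%) in the nulliplex line. Pre-squaring to squaring gave 0 to 0 (0.0233% to 0.987%) and 7 to 20 (0.865% to 4.36%) in that order. The Gh line effect gave 6 to 7 (0.794% to 1.01%) and the Gb line effect 4 to 5 (3.66% to 4.26%). For the interaction the range was 1 to 6 (0.06% to 1.35%). Depth limits the Gb side most, where 139 to 185 of the genes had a read in a library.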
